A study of Mus musculus with 4 samples.

Results

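Lymphatic endothelial cells (LECs) line the vessels that drain fluid and leukocytes from tissue. PROX1, a homeobox transcription factor, sets and keeps their identity, and VEGF-C acting on the receptor VEGFR-3 (Flt4) drives their growth. In the lung they form blind-ended capillaries beside airways and larger vessels, which lead into collecting vessels with valves, and they secrete the chemokine CCL21, which guides CCR7-bearing dendritic cells and lymphocytes. Here LECs were picked from single-cell RNA-seq of bleomycin-injured mouse lungs, in which UMIs (unique molecular identifiers, 1 per captured RNA molecule) were counted per gene. A cell was taken when at least 2 of Prox1, Mmrn1, Flt4 and Reln had a UMI, with Prox1 or Mmrn1 among them, when Cdh5 or Pecam1 had a UMI, and when Ptprc (leukocytes), Epcam (epithelium) and Gpihbp1 (capillary endothelium) had none. This rule found 60 cells among the 30860 cells that passed the quality limits (200 to 7500 genes and at most 15% mitochondrial UMIs), of 32121 deposited cells.

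The samples came from 2 wild-type (WT) littermates and 2 Tubb3-/- mice, 8 to 11 weeks of age. The Tubb3-/- mice were homozygous for a Tubb3-Cre knock-in, in which Cre sits in frame at the start of the gene for β-III tubulin, so the allele is present in every cell and its carriers also have Cre. All 4 mice had received 0.8 U/kg bleomycin into the trachea, which injures the alveoli and leads to fibrosis, and lungs were taken on day 14. No uninjured lung and no Cre control was analysed here. Each mouse gave a whole-cell library, depleted of red blood cells, and a library enriched for mural cells, the pericytes and smooth muscle cells that wrap vessels. The second kind was depleted of cells with CD31 (Pecam1), CD45, EpCAM or TER-119 before sorting. The 4 libraries of each kind were tagged and sequenced in 1 pool, so preparation and pool cannot be told apart.

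The 8 libraries held 3202 to 5051 cells and 41462258 to 95036340 gene UMIs, with a median of 9186 to 16299 UMIs per cell, and within either pool both Tubb3-/- libraries were deeper than both WT libraries. The sample tag given in the labels was the highest in 99.9% to 100% of the cells of each library. No barcode was shared within a pool, and 1 to 9 were shared between any library of 1 pool and any library of the other. Tubb3 stood at 0.868 and 1.93 UMIs per 1000000 (CPM) in the WT and at 0.262 and 0.321 in the Tubb3-/- whole-cell libraries, and at 3.67 and 5.49 against 0.680 and 0.789 CPM in the mural cell-enriched libraries. LECs themselves held 0 Tubb3 and 0 Cre UMIs in every mouse. A count of 0 allowed up to 38.0 and 32.2 CPM in the WT mice and 12.3 and 15.4 CPM in the Tubb3-/- mice (3 counts of the summed UMIs of that mouse, counting error only), and other endothelial cells held 0.330 to 1.84 CPM, so Tubb3 was not detectable in LECs at this depth in either genotype.

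LECs came from all 8 libraries. The whole-cell libraries gave 5 and 4 cells from the WT mice and 13 and 9 from the Tubb3-/- mice. The mural cell-enriched libraries gave 3 and 3 from the WT mice and 7 and 16 from the Tubb3-/- mice, although CD31-bearing cells had been depleted there. LECs held a median of 8184 UMIs and 3280 genes per cell, against 7886 UMIs in the 3752 other endothelial cells, which are cells with at least 2 of Cdh5, Pecam1, Cldn5 and Egfl7, no Ptprc or Epcam and fewer than 2 of the lymphatic markers. By mouse the median was 7841 and 7359 UMIs in the WT LECs and 10197 and 6334 in the Tubb3-/- LECs. Depth thus did not separate the genotypes among the LECs that the rule had picked. In other endothelial cells it did, with medians of 6279 and 6786 UMIs in WT and 9141 and 8889 UMIs in Tubb3-/- mice. Scrublet, a doublet caller run on each pool, marked 2 of the 60 cells. Both came from the mural cell-enriched library of WT mouse 2, 1 with 2 lymphatic markers and 29083 UMIs and 1 with 4 markers and 16668 UMIs, and together they held 49.0% of the LEC UMIs of that mouse. Values that rest on them are therefore also given without them.

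The 4 markers that chose the cells are given as a description. Mmrn1, which encodes the secreted glycoprotein multimerin-1, had the highest level, at 1508 and 1061 CPM in WT LECs and 1530 and 2222 CPM in Tubb3-/- LECs, where UMIs were summed over the cells of a mouse. Reln, the secreted protein reelin, stood at 1292, 525, 1304 and 1466 CPM in the same order, and Prox1 at 469, 622, 461 and 993 CPM. Flt4 stood at 405, 418, 514 and 926 CPM. All 4 were near 0 in other endothelial cells apart from Flt4, which lay between 26.5 and 48.0 CPM and had a UMI in 25.6% of those cells. Prox1 lies on chromosome 1 (mm10, positions 190118035 to 190170714, minus strand), where the annotation also places an antisense RNA gene. Whether counting used strand was not given in the sources used here.

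Genes that the rule did not use marked most of these cells as lymphatic. Ccl21a had a UMI in 51 of 60 cells (85.0%) and in 6.32% of other endothelial cells, and its level was 7361 and 9142 CPM in WT LECs and 8434 and 12241 CPM in Tubb3-/- LECs, against 5.61 to 6.99 CPM in the other endothelial cells of the same mice. Tbx1, a transcription factor needed for lymphatic growth, had a UMI in 46 LECs and in 0.267% of other endothelial cells. Maf, a transcription factor of lymphatic development, had a UMI in 50 LECs, and Nrp2, a co-receptor for VEGF-C, in 53. Pdpn (podoplanin) was found in 41, Thy1 in 33 and Fgl2 in 34 LECs. Lyve1, the hyaluronan receptor of lymphatic capillaries, did not separate the classes: it had a UMI in 28 LECs (46.7%) and in 57.7% of other endothelial cells. Thinned to 3000 UMIs per cell, which left out 4 LECs and 300 other endothelial cells, these shares were 83.9% against 2.40% for Ccl21a, 55.4% against 0.0579% for Tbx1 and 30.4% against 44.4% for Lyve1. Sftpc, a gene of alveolar type 2 cells that endothelial cells lack, had a UMI in 57 of 60 LECs and 89.9% of other endothelial cells. It stood at 214 to 329 CPM in LECs. The epithelial gene Scgb1a1 stood at 607 to 851 CPM in LECs of the whole-cell and at 0 to 94.2 CPM in those of the mural cell-enriched libraries. Such levels thus varied with gene and pool, and whether they came from free RNA was not tested.

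Identity depended on how many markers a cell held. Of the 60 cells, 46 had all 4 markers, 5 had 3 and 9 had 2. Ccl21a ranged from 3.10 to 319 UMIs per 10000 in the cells with 4 markers, with a median of 96.8, and was present in each of the 5 cells with 3 markers. It was at 0 in all 9 cells with 2 markers. In those 9 cells the blood endothelial receptor Flt1 had a median of 10.8 UMIs per 10000, whereas 3 of the 46 cells with 4 markers held any. Summed over cells, the 2-marker cells also held more Ly6a (1281 against 14.0 CPM), Ly6c1 (838 against 9.98 CPM) and the fibroblast gene Dcn (765 against 63.8 CPM) than the cells with 3 or 4 markers. The 9 cells (3 from WT and 6 from Tubb3-/- mice) met the rule. Ccl21a and Flt1 go against the lymphatic name for most of them. The values below are therefore also given for the 51 cells with 3 or 4 markers where they differ. Of the 9, however, 2 cells of Tubb3-/- mouse 2 held no Flt1. They had the highest Prox1 of all LECs (52.2 and 44.5 UMIs per 10000) and held Tbx1 (6.52 and 5.56). All 3 of the 2-marker cells of that mouse held Foxc2, a valve gene, and 2 held Cldn11. The set of 51 cells leaves these out.

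**Figure D1:**
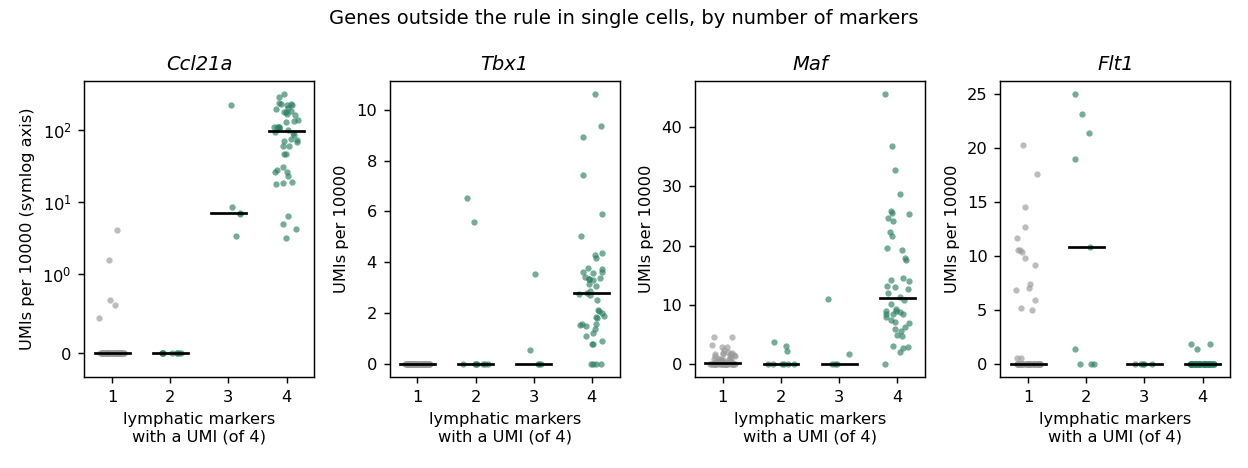
UMIs per 10000 of Ccl21a (symlog axis), Tbx1, Maf and Flt1 in single cells, by how many of the 4 lymphatic markers had a UMI. Green points are the 60 LECs, grey points are the 59 cells with 1 marker that otherwise passed, and black lines are medians. Ccl21a was at 0 in all 9 cells with 2 markers and had a median of 96.8 in the 46 cells with 4.

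Just outside the rule lay 59 cells with Prox1 or Mmrn1 as the only marker, 5 of which held Ccl21a and 0 of which held Tbx1. A further 76 cells met the marker and endothelial criteria and failed on the exclusion genes, 44 of them on Gpihbp1 alone, 12 on Ptprc alone and 1 on Epcam alone. Of these 76 cells, 27 had 3 or 4 lymphatic markers and all 27 held Ccl21a. In 12 of the 76 cells a single UMI of an exclusion gene decided, and all 12 came from Tubb3-/- mice, whose libraries were deeper. The part of free RNA in these exclusions was not tested.

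The first question was whether LECs made up another share of the endothelium in Tubb3-/- lungs. LECs were 1.22% and 0.765% of endothelial cells in the WT mice (8 of 658 and 7 of 915 cells) and 1.67% and 2.29% in the Tubb3-/- mice (20 of 1196 and 25 of 1090 cells). The genotypes did not overlap. The exact 95% binomial (Clopper-Pearson) intervals were 0.526% to 2.38% and 0.308% to 1.57% in the WT mice and 1.02% to 2.57% and 1.49% to 3.37% in the Tubb3-/- mice, so counting error alone let the mice overlap. WT mice averaged 0.990% ± 0.319 and Tubb3-/- mice 1.98% ± 0.439 (SD, n = 2 each), a 2.00-fold difference of 0.992 percentage points, with an exact two-sided permutation p of 0.33, the smallest that 2 against 2 mice can give.

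The difference was of unlike size in the 2 kinds of library. In the whole-cell libraries LECs were 1.17% and 0.708% of endothelial cells in WT and 1.63% and 1.22% in Tubb3-/- mice, a difference of 0.484 percentage points. In the mural cell-enriched libraries they were 1.29% and 0.857% in WT and 1.75% and 4.57% in Tubb3-/- mice, a difference of 2.09 percentage points in which Tubb3-/- mouse 2 stood apart. As a share of all kept cells of the whole-cell libraries, LECs were 0.147% and 0.128% in WT and 0.311% and 0.260% in Tubb3-/- mice, 2.08-fold higher on average (exact two-sided permutation p = 0.33, n = 2 mice per genotype). Among endothelial cells the share was higher in the mural cell-enriched than in the whole-cell library in 4 of 4 mice, by 0.935 ± 1.61 percentage points on average (SD, n = 4), with an exact two-sided sign-flip p of 0.125, the smallest that 4 mice can give.

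**Figure D2:**
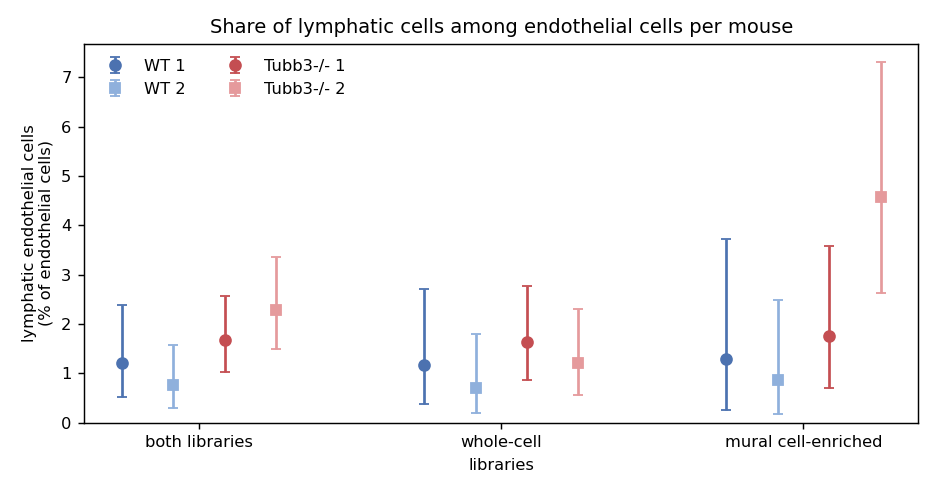
LECs as a percentage of endothelial cells in each mouse, for both libraries together and for either kind alone. Points are mice and bars are 95% Clopper-Pearson intervals, and the highest point is Tubb3-/- mouse 2 in the mural cell-enriched library, at 4.57%.

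The next comparison describes the LEC transcriptome against that of other endothelial cells in the same mouse. It is a description with no test, because the rule chose LECs from these cells. Levels were compared as log2 ratios of CPM with 5 CPM added. Of the genes outside the rule with a mean of at least 100 CPM in either class, 44 were at least 4-fold higher and 41 at least 4-fold lower in LECs in each of the 4 mice. The counts depended on the gate. With no limit on Gpihbp1, which lets in cells with capillary RNA, they were 25 and 4, and with the gate on cells thinned to 3000 UMIs they were 79 and 133, both settings chosen after seeing the data.

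Ccl21a led the higher genes, with log2 ratios of 9.26 to 10.11. The Ccl21a gene counted here lies on chromosome 4 (mm10, 42772860 to 42773993, minus strand), in a cluster of near-identical copies. Of all 91-base windows of its transcript, 54.4% occur unchanged in a transcript of another copy, which held 9 or fewer UMIs in LECs against 5864 for this gene, so its count is uncertain to the extent that reads were shared between copies or dropped. Nts, which encodes the peptide neurotensin, followed a different pattern from cell to cell: 19 LECs held it, at 874 and 3387 CPM in WT and 160 and 658 CPM in Tubb3-/- LECs, against 0.368 to 0.999 CPM in other endothelial cells. All 4 mice were far above their other endothelial cells, but the mice differed among themselves, and 1 cell held 56.9% of all Nts UMIs.

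Of the other genes among the 15 with the largest ratios, 2 encode secreted ligands. They were Sema3a, a semaphorin, at 329, 472, 1098 and 849 CPM in the order WT 1, WT 2, Tubb3-/- 1 and Tubb3-/- 2, and Angpt2, a ligand of the Tie2 receptor, at 291, 300, 222 and 237 CPM. Other endothelial cells held at most 11.2 CPM of Sema3a and 20.6 CPM of Angpt2. The list also held Kcnn3, a calcium-activated potassium channel, with log2 ratios of 4.20 to 5.31, Scn3a, a sodium channel subunit, at 3.56 to 4.34, and Fgf13, an intracellular factor that binds sodium channels, at 4.05 to 4.93. The rest were the transcription factors Tbx1 (4.57 to 5.83) and Maf (3.67 to 5.18), the proprotein convertase Pcsk6 (4.17 to 5.66), Tc2n (4.38 to 5.83), Ankrd6 (4.10 to 5.25), Pld5 (3.79 to 6.02), Klhl4 (3.52 to 5.00) and the long intergenic RNA D5Ertd615e (4.86 to 6.54).

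Among the 10 genes lowest in LECs, 4 were globins, Hba-a1, Hba-a2, Hbb-bs and Hbb-bt. Hbb-bs stood at 10.7 to 25.7 CPM in LECs and at 366 to 1180 CPM in other endothelial cells. It had a UMI in 18.3% of LECs and in 15.4% of other endothelial cells. Hba-a1, Hba-a2 and Hbb-bt had a UMI in 3.86%, 4.29% and 2.69% of other endothelial cells, so a minority of cells carried the globin levels. The other genes were the adhesion receptor Adgrl3 (15.4 to 107 CPM against 736 to 1275 CPM), Kitl, the ligand of the receptor KIT (30.9 to 50.7 CPM against 434 to 532 CPM), the natriuretic peptide receptor Npr3, the protocadherin Pcdh1, Ccdc85a and Ntrk2. Ntrk2, the neurotrophin receptor TrkB, had 0 UMIs in LECs of all 4 mice and 46.8 to 151 CPM in other endothelial cells. Given the UMIs summed, a count of 0 still allowed a level of up to 38.0 CPM in a WT mouse and up to 15.4 CPM in a Tubb3-/- mouse.

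**Figure D3:**
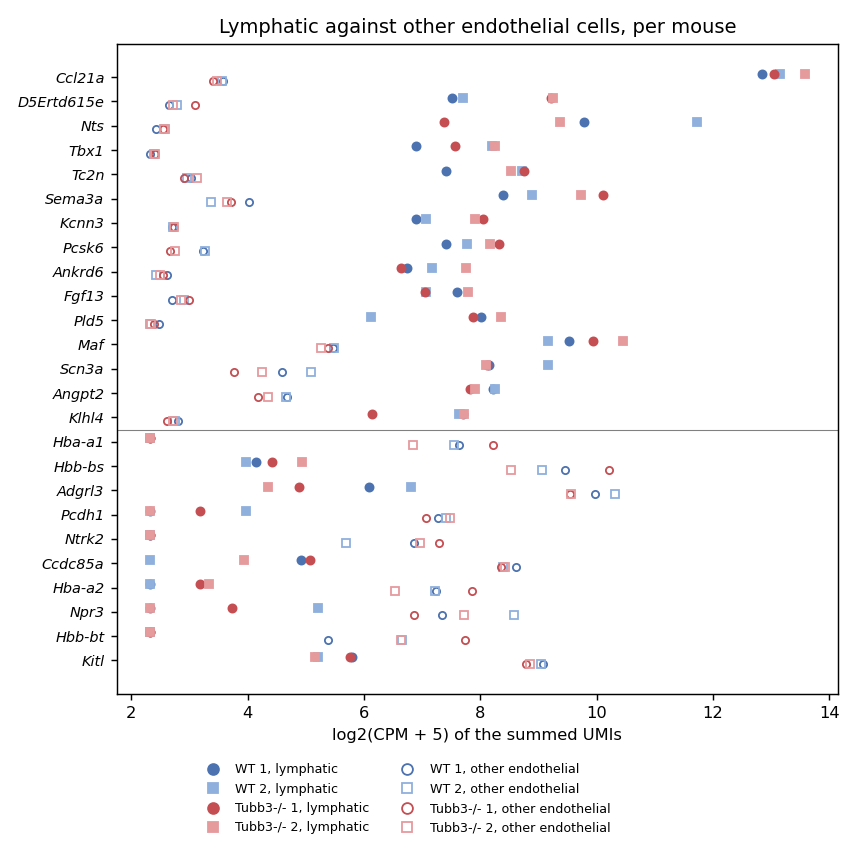
Levels of the 15 genes with the largest and the 10 genes with the smallest ratio of LECs to other endothelial cells, as log2(CPM + 5) of the UMIs summed per mouse. Filled symbols are LECs and open symbols the other endothelial cells of the same mouse, and they do not overlap for any of the 25 genes.

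The lymphatic lists were read by role. Of the 17 entries of the identity list, 13 were higher in LECs than in other endothelial cells of all 4 mice, with a median log2 ratio of 2.77, against a median of 0.09 over all genes tested for genotype. Of all 3383 such genes outside the rule, 814 were higher and 428 lower in LECs of all 4 mice, and of the 12926 genes tested in both classes 1494 were higher and 2036 lower. Besides the genes above these included Nr2f2 (COUP-TFII, which acts with PROX1), at 536 to 818 CPM against an average of 140 CPM in other endothelial cells, Sema3d (304 to 646 against 34.5 CPM) and the scavenger receptor Stab1 (225 to 751 against 50.4 CPM). Sox18, which induces Prox1 in the embryo, stood at 69.9 to 165 CPM against 101 CPM and did not separate the classes.

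Genes of valves and collecting vessels were mixed. Itga9, an integrin subunit needed for valve leaflets, stood at 329 to 777 CPM against 76.5 CPM in other endothelial cells and had a UMI in 53 LECs. Gja1 (connexin 43) stood at 107 to 507 CPM against 27.9 CPM, and Celsr1, a planar polarity receptor of valve cells, at 25.3 to 96.5 CPM against 0.966 CPM. Foxc2, the transcription factor of valve formation, had a UMI in 9 LECs (15%) against 2.27% of other endothelial cells, and Cldn11 in 5 (8.33%) against 0.293%. Both were found together in 4 cells, of which 2 had only 2 lymphatic markers. Gata2, a transcription factor of valve development, and Gja4 ran the other way, with Gja4 (connexin 37) at 28.8 to 88.7 CPM against 170 CPM.

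The receptors of VEGF signalling were divided in LECs. Kdr (VEGFR-2) stood at 241, 214, 407 and 607 CPM, below the other endothelial cells of both WT mice and above those of both Tubb3-/- mice (average 288 CPM), whereas Nrp2 stood at 760, 493, 1049 and 1322 CPM against 73.1 CPM. Nrp1, the co-receptor more typical of arteries, was lower in LECs in all 4 mice (38.0 to 123 against 561 CPM), and so was Flt1 (VEGFR-1; 42.9 to 456 against 762 CPM). The ligand Vegfc itself was low in LECs, at 5.14 to 49.4 CPM against 112 CPM, and its processing factors Ccbe1 and Adamts3 were held by 4 and 3 LECs. In the angiopoietin and adrenomedullin group, LECs held more Angpt2 and less Tek, its receptor Tie2 (128 to 177 against 372 CPM), and less of the adrenomedullin receptor pair Calcrl (367 to 843 against 2134 CPM) and Ramp2 (502 to 793 against 1210 CPM).

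Receptors of the BMP and TGF-beta family were divided in LECs. Tgfbr2 was higher in LECs of all 4 mice (405 to 550 against 228 CPM), while Acvrl1 (ALK1; 46.3 to 127 against 522 CPM), Eng (endoglin; 107 to 226 against 531 CPM) and Bmpr2 (214 to 514 against 1064 CPM) were lower in all 4, and 8 of the 13 genes of the list were lower in all 4 mice, beside 428 of 3383 and 2036 of 12926 genes in the whole table. Of the 17 entries of the chemokine and scavenger list, Ccl21a was the only one above other endothelial cells in all 4 mice, and Cxcl12 was lower (36.0 to 69.9 against 617 CPM). Ccl20 and Cxcl9 had 0 UMIs in LECs. The atypical receptor Ackr2, which scavenges inflammatory chemokines, had a UMI in 25 LECs. Of the 14 antigen presentation genes, 10 were below other endothelial cells in all 4 mice (median log2 ratio -0.92), among them B2m (833 to 1280 against 1828 CPM) and Cd74 (21.4 to 94.6 against 403 CPM). Cd36, a fatty acid carrier of capillaries, was lower (63.3 to 225 against 1362 CPM). In the matrix list Lama4, a laminin chain of vessel basement membranes, was higher at a steady level (447 to 583 against 74.4 CPM), and Nid2 was higher (42.9 to 101 against 3.09 CPM), while Mgp was lower (3384 to 7703 against 13595 CPM).

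The share of cells with cell-cycle genes was larger among LECs than among other endothelial cells, given here with no test. A cell was counted when at least 4 of 14 cell-cycle genes had a UMI. This held for 1 of 8 and 1 of 7 WT LECs (12.5% and 14.3%) and for 3 of 20 and 3 of 25 Tubb3-/- LECs (15% and 12%). In other endothelial cells it held for 0.464% and 0.889% of the WT cells (3 of 647 and 8 of 900) and for 4.86% and 3.99% of the Tubb3-/- cells (56 of 1153 and 42 of 1052). LECs lay above the other endothelial cells in each of the 4 mice, and all 8 such LECs had 3 or 4 lymphatic markers. The counted LEC of WT mouse 2 was 1 of the 2 cells that Scrublet marked, which leaves 0 of the other 5 LECs of that mouse. Mki67, the gene of the proliferation antigen Ki67, stood at 38.0, 96.5, 32.9 and 66.9 CPM in LECs and at 8.83, 5.37, 45.7 and 44.7 CPM in other endothelial cells. The genotypes overlapped in LECs and did not overlap in other endothelial cells. With cells thinned to 3000 UMIs and at least 2 of the 14 genes required, the shares in LECs were 0% and 16.7% in WT and 25% and 8.70% in Tubb3-/- mice, against 0.717%, 0.986%, 4.88% and 3.81% in other endothelial cells, so LECs of WT mouse 1 (0 of 7 thinned cells) no longer lay above. The exact intervals of the LEC shares reached from 0.316% to 52.7% in WT mouse 1, so that their level was poorly determined.

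**Figure D4:**
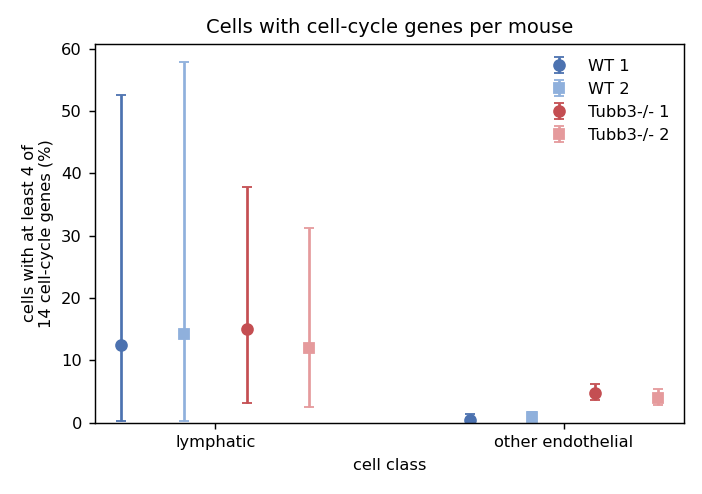
Percentage of cells with a UMI in at least 4 of 14 cell-cycle genes, in LECs and in other endothelial cells of each mouse. Bars are 95% Clopper-Pearson intervals. LEC shares lie between 12% and 15% in all 4 mice, and the other endothelial cells at 0.464% and 0.889% in WT and 4.86% and 3.99% in Tubb3-/- mice.

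The main question was which genes differed in LECs between genotypes. The UMIs summed per mouse came to 78932 and 93304 in WT and 243063 and 194437 in Tubb3-/- LECs, so the WT side was the thinner. By the quasi-likelihood test of edgeR, adjusted after Benjamini and Hochberg, 0 of 3389 genes tested passed an adjusted p of 0.05 (0% called), and 280 genes (8.26%) had an unadjusted p under 0.05. DESeq2's Wald test called 9 genes, of which 1 was higher and 8 were lower in Tubb3-/- LECs. The 2 genotypes did not overlap at 806 genes (23.8%) with Tubb3-/- above WT and at 533 genes (15.7%) with Tubb3-/- below. On simulated data with these depths the edgeR test found 1% of the genes given a log2 fold change of 1, so that changes of moderate size could not be seen. It found 65% of those given 2 and 92.5% of those given 3. In these 3 runs it also called 5, 12 and 5 unchanged genes.

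The gene nearest to a call was Cmah, which encodes the enzyme that hydroxylates sialic acid (chromosome 13, 24327404 to 24477377, plus strand, mm10). It stood at 25.3 and 32.2 CPM in WT and 642 and 483 CPM in Tubb3-/- LECs. Both Tubb3-/- mice were far above both WT mice, a log2 fold change of 4.17 ± 0.47 (SE; adjusted p = 0.0835, edgeR), and DESeq2 called it. The reads came from 20 LECs, of which 1 held 26.7% of the UMIs. By library the WT values were 35.5 and 67.2 CPM and the Tubb3-/- values 202 and 59.7 CPM in the whole-cell pool, where the genotypes overlapped, and 0 and 0 against 1393 and 706 CPM in the mural cell-enriched pool, where they did not. With 3 or 4 markers required the log2 fold change was 3.88 ± 0.51 (adjusted p = 0.158), and without the doublets 3.69 (adjusted p = 0.394).

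The 4 other genes of smallest p among those higher in Tubb3-/- LECs were spread over many cells as well. Gap43, a growth-associated protein of axon growth cones, stood at 25.3 and 21.4 CPM in WT and 247 and 211 CPM in Tubb3-/- LECs (log2 fold change 3.19 ± 0.52, adjusted p = 0.202). It kept apart in both pools, with 17.8 and 22.4 against 222 and 254 CPM in the whole-cell and 44.2 and 20.5 against 290 and 188 CPM in the mural cell-enriched libraries, although the WT values rest on 2 UMIs in either mouse. Rapgef5, an exchange factor for Rap GTPases, stood at 557 and 514 CPM against 1337 and 1517 CPM (1.33 ± 0.28, adjusted p = 0.310). D5Ertd615e stood at 177 and 204 against 588 and 607 CPM (1.57 ± 0.33, adjusted p = 0.310) and Galnt18, which starts mucin-type glycosylation, at 355 and 611 against 1370 and 1332 CPM (1.40 ± 0.33, adjusted p = 0.367). For all 5 genes the mice of the genotypes did not overlap, and 0 of them were called by edgeR. Without the doublets the log2 fold change was 3.15 for Gap43, 1.05 for Rapgef5, 1.18 for D5Ertd615e and 1.07 for Galnt18.

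On the lower side were Inmt, an N-methyltransferase, at 317 and 868 CPM in WT and 49.4 and 30.9 CPM in Tubb3-/- LECs (log2 fold change -3.91 ± 0.57, adjusted p = 0.202), and Cxcl1, a neutrophil chemokine, at 203 and 204 against 28.8 and 25.7 CPM (-2.93 ± 0.45, adjusted p = 0.202). Pde4d, a cAMP phosphodiesterase, stood at 405 and 547 against 103 and 108 CPM (-2.25 ± 0.35, adjusted p = 0.202). The remaining genes were Hsd11b1, the enzyme that regenerates glucocorticoids, at 317 and 150 against 24.7 and 10.3 CPM, and the netrin receptor Unc5c, at 228 and 129 against 20.6 and 10.3 CPM. All 5 were without overlap between the genotypes. Few cells held them, 16 LECs for Inmt, 14 for Cxcl1, 8 for Hsd11b1 and 6 for Unc5c. The doublets held 98.8% of the Inmt UMIs of WT mouse 2, 92.9% of the Hsd11b1 UMIs and all of the Cxcl1 and Unc5c UMIs. Without them that mouse stood at 21.0 CPM for Inmt and Hsd11b1 and at 0 for Cxcl1 and Unc5c. These values lay at or below the floor of 32.2 CPM that its full sum allowed. The 4 differences were thus carried by WT mouse 1 and by doublets. In WT mouse 1 a single LEC with 22467 UMIs held all Hsd11b1 and Unc5c UMIs of that mouse. They were 53.2% and 48.6% of the UMIs of all mice. Pde4d kept 336 CPM in WT mouse 2 (log2 fold change -1.90, adjusted p = 0.906 without the doublets), and 26 LECs held it. However, a single LEC of WT mouse 1 held 19.4% of the Pde4d UMIs of all mice, most of those of that mouse.

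**Figure D5:**
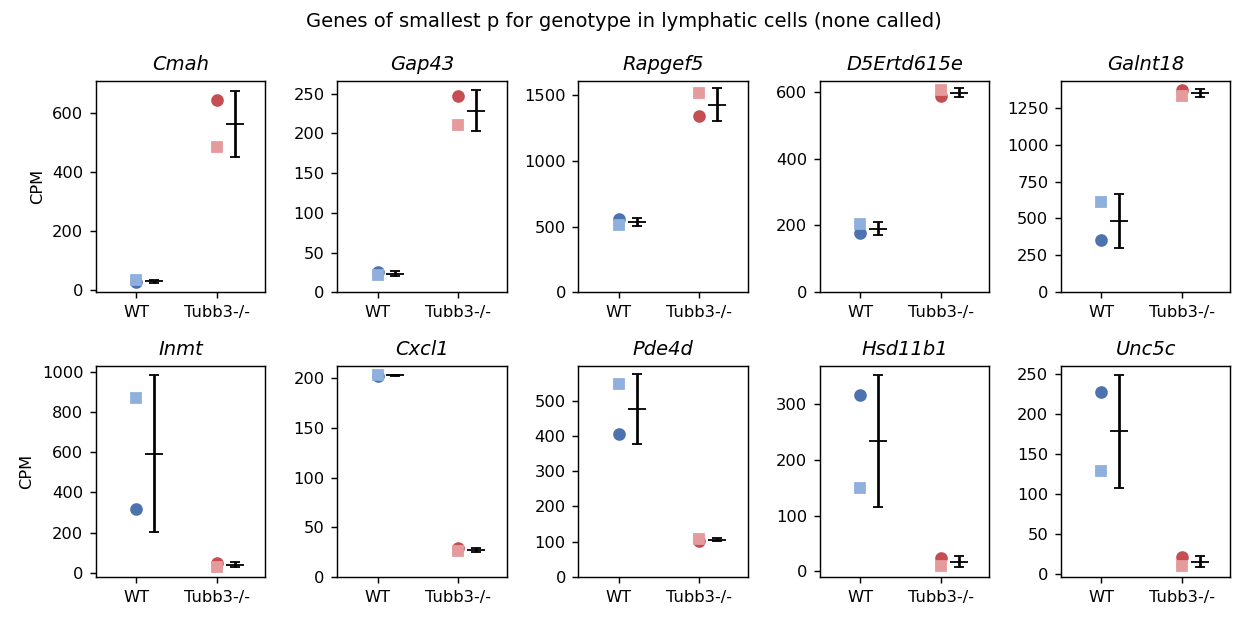
CPM of the 5 genes of smallest p in each direction between genotypes in LECs. Circles are mouse 1 and squares mouse 2 of a genotype, and bars beside them are mean ± SD (n = 2). WT and Tubb3-/- points do not overlap for any of the 10 genes, and none passed the adjusted threshold in edgeR.

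Of the 8 genes that DESeq2 called lower, Inmt and Pde4d are described above. Mgp, an inhibitor of BMP signalling and calcification, stood at 7703 and 7084 CPM in WT against 3509 and 3384 CPM in Tubb3-/- LECs (adjusted p = 0.0440, DESeq2). The doublets held 91.7% of the Mgp UMIs of WT mouse 2, which stood at 1157 CPM without them, and the log2 fold change of edgeR went from -1.18 to -0.47. Among the 51 cells with 3 or 4 markers it was -0.23. Igfbp5 stood at 2559 and 1007 against 407 and 370 CPM, and only in the whole-cell libraries were WT mice above Tubb3-/- mice (3589 and 2061 against 13.0 and 59.7 CPM), while in the mural cell-enriched libraries they were below (0 and 41.1 against 1081 and 534 CPM). The others were the actin-severing protein Gsn, the stress gene Gadd45b, the complement component C7 and the convertase Pcsk5. C7 was held by 6 LECs and Pcsk5 by 13. In WT mouse 1 a single LEC held 43.0% of the Igfbp5 UMIs of all mice, nearly all that this mouse had. For C7 and Pcsk5, too, a single LEC of WT mouse 1 held nearly all UMIs of that mouse, 39.9% and 42.8% of those of all mice.

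No gene list held a gene called by edgeR, and DESeq2 called 1 gene of the biological lists, Mgp of the matrix list. The median log2 fold change of all genes tested was 0.00, and the medians of these lists lay between -0.78 and 0.63. In the identity list, 7 of the 14 tested entries were without overlap and higher in Tubb3-/- LECs, against 23.8% of all genes, and 2 were lower (median log2 fold change 0.33). With 3 or 4 markers required the median was 0.18. Among them Sema3a had a log2 fold change of 1.20 ± 0.33 (adjusted p = 0.397; 0.61 without the doublets), Nrp2 of 0.84 ± 0.33 (adjusted p = 0.579) and Maf of 0.78 ± 0.32 (adjusted p = 0.579). The 2-marker cells, which were low in these genes, made up 3 of 15 WT and 6 of 45 Tubb3-/- LECs. Without the doublets Ccl21a, Tbx1 and Thy1 went from 0.25, 0.16 and 0.11 to -0.20, -0.19 and -0.32. The other tested entries kept their sign. Nrp2, Maf and Pdpn then stood at 0.72, 0.59 and 0.50, and Stab1, Sema3d and Nr2f2 at 0.38, 0.37 and 0.30. Lyve1 stood at 1128 and 354 CPM in WT and 276 and 216 CPM in Tubb3-/- LECs, without overlap (-1.66 ± 0.53, adjusted p = 0.511). Its WT levels were 1492 and 538 CPM in the whole-cell and 221 and 185 CPM in the mural cell-enriched libraries, against 170 and 134 CPM and 457 and 259 CPM in Tubb3-/- mice, so the direction turned between the pools.

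For the signalling lists, 4 VEGF-C genes were tested with a median of 0.63, which Kdr (1.07 ± 0.36, adjusted p = 0.514) and Nrp2 led. The 10 tested BMP and TGF-beta genes had a median of -0.65 and 4 of them were lower without overlap, Bmpr2, Id1, Id3 and Acvrl1, against 15.7% of all genes. Bmpr2 had a log2 fold change of -0.86, which was 0.09 without the doublets and 0.30 with 3 or 4 markers. With 3 or 4 markers 5 of these 10 could be tested and the median was 0.16. The immediate early list, genes induced within minutes of stimulation or cell dissociation, had a median of -0.49 over 18 genes, and 7 of them were lower without overlap, with Nr4a1 at 443 and 600 against 148 and 185 CPM (-1.73 ± 0.35, adjusted p = 0.308). Its median was -0.40 with 3 or 4 markers. The matrix list (20 tested, median 0.09), the antigen presentation list (7 tested, -0.08), the junction list (6 tested, -0.00), the interferon list (7 tested, 0.32) and the tubulin list (6 tested, 0.52) held 0 genes each that edgeR called. Valve and collecting vessel genes had a median of -0.02 over 8 tested, where Nfatc1, a transcription factor of valve formation, stood at 342 and 397 against 49.4 and 211 CPM (-1.62 ± 0.59, adjusted p = 0.551). The medians of the adhesion and sphingosine phosphate list (5 tested), the lipid list (4 tested), the angiopoietin and adrenomedullin list (6 tested), the chemokine list (4 tested) and the cell-cycle list (4 tested) were -0.78, -0.41, -0.20, 0.02 and -0.20. Of 8 immune regulators only Cd200 could be tested (-0.37).

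The mural markers were higher in both Tubb3-/- mice, and other marker lists differed between mice. The 9 fibroblast markers summed to 1254 and 1983 CPM in WT and 1724 and 797 CPM in Tubb3-/- LECs. The 9 mural markers summed to 291 and 354 against 1925 and 489 CPM, and 62.5% of the Acta2 UMIs lay in 1 cell. The 5 mesothelial markers summed to 0 and 32.2 against 992 and 30.9 CPM, and 97.7% of the Msln UMIs lay in 1 cell of Tubb3-/- mouse 1 with 2 lymphatic markers, which also held 65.2% of the Dcn UMIs. Among LECs with 3 or 4 markers the mesothelial sum was at most 28.5 CPM in every mouse. The 12 blood endothelial markers summed to 2204, 1425, 1868 and 2062 CPM, the 11 immune markers to 226 to 456 CPM with 4 of them at 0, and the 10 epithelial markers to 699 to 749 CPM. The part of these cells in the gene differences was not tested.

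A last comparison asked whether genotype differed otherwise in LECs than in other endothelial cells, by an interaction term in 1 edgeR model over both classes. On simulated data, with the same spread set for all genes, it found 2% of the genes given a log2 difference of 2. Of those given 3 it found 24%. Of 12933 genes tested, 816 (6.31%) had an unadjusted p under 0.05 and 74 (0.572%) passed an adjusted p of 0.05, with 22 (0.17%) relatively higher and 52 (0.402%) relatively lower in Tubb3-/- LECs. In 68 of them the difference between LECs and other endothelial cells did not overlap between genotypes. The test had picked these genes from the same values, and the share over all 12933 genes was not counted, so this count adds no support. Many rested on few cells: in 26 of the 74 genes a single LEC held over 50% of the UMIs, and 34 were held by fewer than 10 LECs. With 3 or 4 markers required 12 genes were called, all of them among the 74, and with the 2 Scrublet doublets left out 4 were called, Hp, Col23a1, Maff and Nts, again all among the 74.

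Col23a1, a transmembrane collagen, was called under both limits and rose in Tubb3-/- LECs relative to other endothelial cells. It stood at 101 and 42.9 CPM in WT and 247 and 458 CPM in Tubb3-/- LECs, against 35.9, 28.0, 20.1 and 22.4 CPM in other endothelial cells (difference of log2 fold changes 2.87 ± 0.53, adjusted p = 0.0005, edgeR). Adamtsl1, a matrix protein related to the ADAMTS proteases, stood at 393 and 493 against 963 and 1265 CPM in LECs and at 78.9, 102, 45.7 and 40.9 CPM in other endothelial cells, and 44 LECs held it (2.38 ± 0.41, adjusted p = 0.000152, and 0.0746 without the doublets). Cmah was called as well, with a difference of 3.45 ± 0.60 (adjusted p = 0.000229, and 0.0520 without the doublets). Ptpn4, a tyrosine phosphatase held by 28 LECs, stood at 38.0 and 0 against 152 and 175 CPM in LECs (3.30 ± 0.75, adjusted p = 0.00872, and 0.202 without the doublets). Itm2a had 0 UMIs in the 15 WT LECs and 86.4 and 97.7 CPM over 19 Tubb3-/- LECs, at least 5.29-fold higher (floor of 3 counts over both WT mice), against 8.17 to 12.7 CPM in other endothelial cells (adjusted p = 0.0243, and 0.262 without the doublets).

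Of the 12 genes called with 3 or 4 markers, 4 were relatively higher in Tubb3-/- LECs, Col23a1, Adamtsl1, Cmah and Nav3. Ptpn4 and Itm2a were not called there. The other 8 were relatively lower, Hp, Csmd1, Il6, Olfr1033, Stmn1 and 3 genes given here with their levels. These were the interleukin-1 receptor Il1r1, at 279 and 214 CPM in WT against 86.4 and 15.4 CPM (95% of the UMIs of WT mouse 2 lay in the doublets), the small Maf protein Maff, at 291 and 171 against 12.3 and 51.4 CPM, and Nts. By library, Nts was lower in Tubb3-/- LECs only in the whole-cell pool (WT 1155 and 7079 CPM, Tubb3-/- 143 and 119 CPM). It was higher there in the other pool (WT 177 and 0 CPM, Tubb3-/- 189 and 942 CPM), so its direction turned. The cell-cycle genes Mki67 (-3.23 ± 0.80, adjusted p = 0.0220) and Cenpf (-2.98 ± 0.75, adjusted p = 0.0273) were called among all 60 LECs, where their levels overlapped between genotypes while those of other endothelial cells were higher in both Tubb3-/- mice. With 3 or 4 markers required Mki67 was no longer called, and without the doublets its adjusted p was 0.966. The matrix genes Mgp (-1.49), Fn1 (-1.57) and Sparcl1 (-1.83) and the ligand Bmp6 (-2.92) were called lower, and Bmp6 was held by 5 LECs. None of these 4 genes was called with 3 or 4 markers or without the doublets, and Bmp6 had 0 UMIs in the WT LECs with 3 or 4 markers. In other endothelial cells by themselves 3 of 14537 genes (0.0206%) were called between genotypes, 2 (0.0138%) higher and 1 (0.00688%) lower in Tubb3-/- mice.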

How the data were processed

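Gene and tag UMIs were counted by the authors with Cell Ranger 7.1.0 on mm10 with an added Cre gene, and the deposited counts are raw whole numbers, 1 matrix per mouse and pool, split by tag. Genotypes follow the tags in the labels. Cells and lists were chosen with earlier results of these data known. Counts were summed per mouse over both libraries and tested in R 4.3.3 by the quasi-likelihood test of edgeR 4.0.16 after filterByExpr and TMM, with Benjamini-Hochberg adjustment at 0.05, with DESeq2 1.42.0 and the other settings described at the end as alternatives, after tests on simulated data. CPM are UMIs per 1000000 of the sum. The p-values of edgeR and DESeq2 rest on the spread between 2 mice per genotype, estimated with information shared over all genes. They do not measure the spread of each gene alone, and a gene held by 1 cell can be called. Shares have Clopper-Pearson intervals and exact permutation tests. Doublets were marked with Scrublet in scanpy 1.11.5 and kept. Named genes were those of the rule, up to 6 highest per list at 50 CPM or more, the 5 of smallest p in each direction (or up to 10 called without overlap), and the 15 highest and 10 lowest ratios at 100 CPM or more. Genes named beyond this rule, such as those called by DESeq2 or with 3 markers, and Adamtsl1, Celsr1, Foxc2, Gata2, Gja4, Lama4, Nid2, Sema3d and Stab1, were chosen after their values were seen. Coordinates come from GENCODE vM21. Same-numbered mice did not deviate together (r = 0.0188 over 3389 genes), so numbers were not taken as pairs. Tag counts were used only to check the labels. 1 gene that the rule named is not reported here.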

Additional observations from a re-analysis of the deposited data

Results flagged for a closer look

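A test of the difference between the genotype effects in LECs and in other endothelial cells called 74 genes (edgeR interaction term). Genes taken from these by the naming rule, relatively lower or relatively higher in Tubb3-/- LECs, are given with the adjusted p of that difference and with the number of LECs that held them, since few cells carried most of them.

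Relatively lower were Hp, the haemoglobin-binding plasma protein (adjusted p = 1.82e-08), held by 8 LECs, 1 of which had 80.3% of its UMIs, and Csmd1 (3.94e-07), held by 4. The enzyme Hsd11b1 (0.000275), the protease Mmp3 (0.00047) and the cytokine Il6 (0.0017) were held by 8, 9 and 8 LECs. Igfbp3 (0.00835) was held by 6 LECs at 127 and 139 CPM in WT and 4.11 and 10.3 CPM in Tubb3-/- mice. Mki67 (0.022) was held by 8, Clec11a (0.0282) by 4, the B-cell factor Tnfsf13b (0.0311) by 4 and Pcdhb9 (0.0372) by 2 LECs.

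Relatively higher were Msln (adjusted p = 0.000152) and Upk3b (0.00677), both mesothelial genes, of which 1 LEC with 2 markers held 97.7% and 89.7% of the UMIs. A single LEC held all UMIs of Grip1 (0.000722) and of Myl7 (0.00131), and 94.4% of those of the Wnt antagonist Sfrp2 (0.00412) lay in 1 cell. Spread over more cells were Cmah (0.000229), Col23a1 (0.0005), Ptpn4 (0.00872) and Itm2a (0.0243), held by 20, 33, 28 and 19 LECs.

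Without the 2 doublets, Hp and Col23a1 were the only 2 of the genes named here that were called. The adjusted p of Cmah was then 0.0520. Among all LECs Hp stood at 671 and 10.7 CPM in WT and 37.0 and 15.4 CPM in Tubb3-/- mice. WT mouse 2 thus lay below both Tubb3-/- mice. Other endothelial cells held 66.8 and 21.0 CPM of Hp in WT and 155 and 109 CPM in Tubb3-/- mice.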

How the results depend on the processing

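The higher share of LECs in Tubb3-/- mice kept its direction, without overlap, under every other gate and endothelial denominator tried, from 0.484 percentage points (whole-cell libraries) to 2.09 (mural cell-enriched libraries), and was 0.952 with an endothelial denominator free of fibroblast RNA, chosen after seeing the data. As a share of all kept cells of the whole-cell libraries the difference was 0.125 to 0.301 under the other gates, against 0.148. Leaving out 1 mouse gave 0.682 to 1.30 percentage points, and 0.123 to 0.174 for the share of all cells.

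Against 0 genes called for genotype in LECs, DESeq2 called 9, no filter on low counts 96 and no limit on Gpihbp1 8. Leaving out 1 mouse gave 35 to 68 (35 without Tubb3-/- mouse 2, 67 without Tubb3-/- mouse 1, 68 without WT mouse 1, 41 without WT mouse 2), where the lone mouse is assumed to vary like the others. The replicate number as a block gave 0 calls. The interaction count of 74 became 7 with DESeq2, 4 without doublets, 12 with 3 markers and 32 without the Gpihbp1 limit, and 25 to 135 with 1 mouse left out (25 without Tubb3-/- mouse 2, 49 without Tubb3-/- mouse 1, 135 without WT mouse 1). With the gate on cells thinned to 3000 UMIs, and full counts summed, Clec11a (6.45), Hp (0.75) and Mmp3 (0.43) turned sign and were no longer called. Of 64 calls in that setting 47 were higher and 17 lower, against 22 and 52. The cause was not tested. The 41 genes at least 4-fold lower in LECs became 68 without doublets and 64 in whole-cell libraries, and, in settings chosen after seeing the data, 105 with 3 markers, 4 with no limit on Gpihbp1, 133 with the thinned gate, 25 in mural cell-enriched libraries and 63 with 3 endothelial genes. The 44 higher genes became 55, 48, 66, 25, 79, 27 and 60 in the same order.

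The pool comparison and its alternatives were not run, since 3 of 8 libraries held fewer than 5 LECs. Depth limits all of this: 15 WT cells carry 1 side of each genotype comparison.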
